A study of Mus musculus with 45 samples.

Results

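The genes described here encode the proteins of the cytosolic ribosome. They were taken by name: every probe set annotated with exactly 1 gene symbol that begins with Rpl or Rps and a digit was kept, and the ribosomal S6 kinases (Rps6k) were left out. The rule gave 47 probe sets for 33 genes, out of 8251 genes with a probe set of a single symbol. Of these 33 genes, 29 encode standard ribosomal proteins, 15 of the small and 14 of the large subunit, and 4 are paralogs (Rpl39l, Rps27l, Rpl7l1 and Rps4l). Each of 10 genes had more than 1 probe set, and the brightest in a tissue stood for the gene there. A further 38 probe sets list a ribosomal protein symbol together with other symbols and are not counted as members.

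Mice of C57Bl/6 (B6) and of 129S6/SvEvTac (129S6), both inbred strains, were kept on 1 of 2 diets, low-fat or high-fat. Liver, skeletal muscle and epididymal fat pads were taken at 6 months of age, and no gene was altered in either strain. The design text gives the composition of a single diet, which it calls standard, and the composition of the other diet was not given in the sources used here. Each of the 45 arrays carried 25 µg of RNA pooled from 2 to 3 mice. The liver groups held 4 arrays apiece. Of the muscle groups, low-fat B6 held 3 arrays and the rest 4. In fat, both B6 groups held 4 arrays and both 129S6 groups 3. No label says whether pools of a group shared mice, and p-values therefore measure the spread between pools only. In whole tissue, fewer cells of a type and less RNA per cell cannot be told apart.

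A ribosome is built from a small subunit, which binds the mRNA and reads its codons, and a large subunit, which joins the amino acids. Its proteins are needed in nearly equal numbers, and their mRNAs are among the most abundant of most tissues. Many of these mRNAs begin with an unbroken run of C and T bases, the terminal oligopyrimidine (TOP) tract, through which growth and nutrient signals that act on the TOR kinase set their translation.

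Values are the deposited log2 expression values, so a difference of 1 is a 2-fold difference. Differences were tested with limma on all arrays of a tissue, and p-values were adjusted over all 8251 genes by the Benjamini-Hochberg method with a threshold of 0.05. Diet differences are high-fat minus low-fat, and strain differences are B6 minus 129S6. Levels of different probe sets depend on their probes, so a split of members into brighter and dimmer ones ranks array signal and not mRNA amount.

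The tissues carried their defining markers. The summed level of 5 hepatocyte genes was 21700 to 35900 in liver arrays and 278 to 3820 elsewhere, that of 5 skeletal muscle genes was 15800 to 55300 in muscle and 814 to 1880 elsewhere, and that of the 3 measured adipocyte genes (of 5 listed) was 10400 to 17800 in fat and 580 to 1940 elsewhere. Of the muscle arrays, 5 stood apart from all others. The SD over all probe sets was 1.68, 1.62, 1.59 and 1.70 in the 4 B6 high-fat muscle arrays and 1.57 in replicate 9 of the 129S6 low-fat muscle group, against 1.80 to 1.88 in the other 10 muscle arrays. Each result that rests on these arrays is therefore given with and without them where the design allows it. The B6 high-fat muscle group lies wholly among them, so its diet and strain and the narrow spread of its arrays cannot be told apart.

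**Figure D1:**
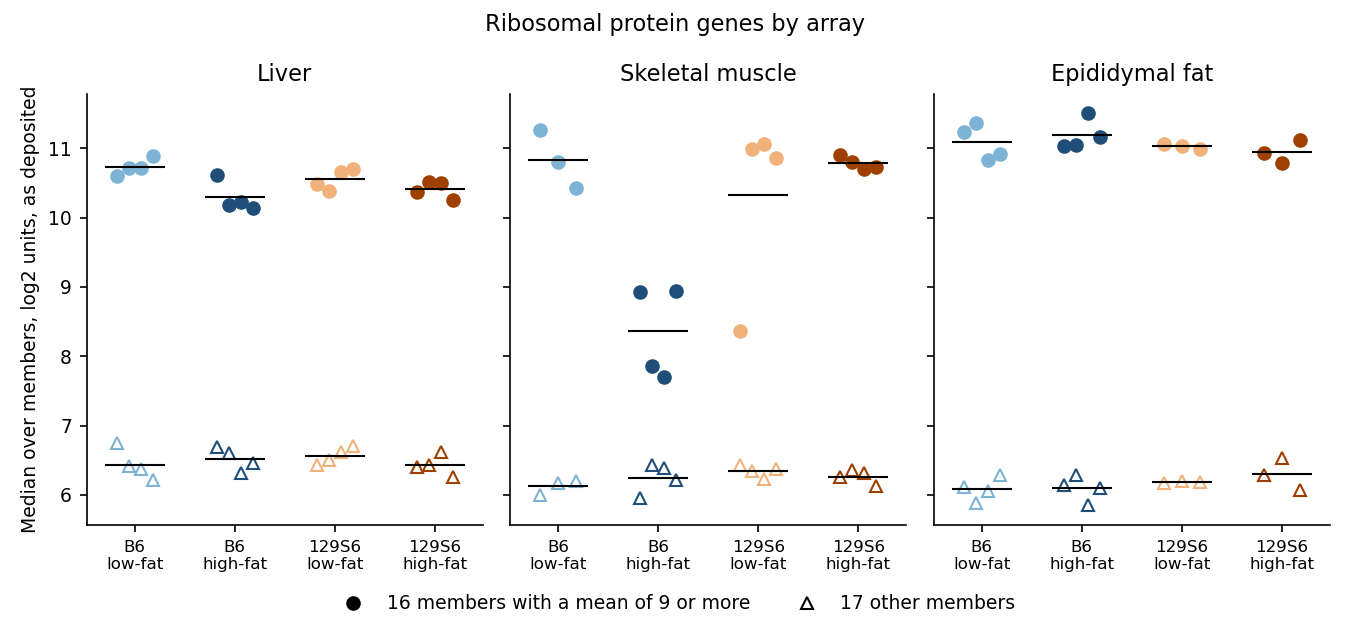
Median over members on each array, in log2 units as deposited, for the 3 tissues (panels) and the 4 groups of strain and diet. Filled circles are the 16 members with a tissue mean of 9 or more, open triangles the other 17, and bars are group means. In muscle the filled circles of the 4 B6 high-fat arrays and of 1 129S6 low-fat array lie between 7.71 and 8.95, and those of the other 10 arrays between 10.43 and 11.27.

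The largest differences among ribosomal protein genes were in B6 muscle on the high-fat diet. There, 14 of the 33 members were lower than on the low-fat diet and 4 were higher, which is 54.5% of the members. Over all genes 12.0% were lower and 14.8% higher in this comparison. The 14 lower members were 7 of the 15 small subunit genes (Rps3, Rps3a1, Rps4x, Rps7, Rps10, Rps18 and Rps19) and 7 of the 14 large subunit genes (Rpl6, Rpl7, Rpl7a, Rpl8, Rpl10a, Rpl19 and Rpl41), and the 4 higher ones were Rps13, Rps14, Rps29 and Rpl38. In each of the 14 lower members the levels of the 2 groups did not overlap, and over all genes 16.4% had every high-fat array below every low-fat array.

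The start regions of 4 of the lower members are shown because these genes carry the result and differ in what stands at their start. Each is 100 bases from RefSeq on mouse build GRCm38.p6, from 80 bases before to 20 bases after the first listed transcription start. Capitals mark a run of at least 5 C or T bases that includes the first transcribed base, and the letters CCGGAAG or their reverse complement CTTCCGG, the core bound by ETS family factors. Rps24, which did not pass the test in this comparison, is shown for contrast.
Rps18 (small subunit, chr17:33955646-33955745, minus strand): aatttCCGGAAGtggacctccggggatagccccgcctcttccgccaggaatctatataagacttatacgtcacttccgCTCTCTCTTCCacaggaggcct
Rps3a1 (small subunit, chr3:86142649-86142748, minus strand): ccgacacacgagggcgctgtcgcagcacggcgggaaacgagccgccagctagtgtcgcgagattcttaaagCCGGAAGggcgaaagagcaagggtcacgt
Rps10 (small subunit, chr17:27635225-27635324, minus strand): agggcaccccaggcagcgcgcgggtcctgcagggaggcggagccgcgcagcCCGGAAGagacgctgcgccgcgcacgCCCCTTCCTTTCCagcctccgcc
Rpl7a (large subunit, chr2:26910727-26910826, plus strand): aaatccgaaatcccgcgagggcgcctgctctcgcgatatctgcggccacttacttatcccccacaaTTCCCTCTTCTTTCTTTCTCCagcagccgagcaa
Rps24 (small subunit, chr14:24490598-24490697, plus strand): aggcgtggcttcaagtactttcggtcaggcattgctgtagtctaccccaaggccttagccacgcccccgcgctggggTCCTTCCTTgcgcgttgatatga

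The C or T run was 11 bases in Rps18, 13 in Rps10, 21 in Rpl7a and 9 in Rps24, and only the single first base in Rps3a1. It was counted both ways from the listed start and can include bases before it, so its length is not that of a TOP tract. The starts used in these tissues were not measured. RefSeq promoter entries were matched for 26 of the 33 members. Over the 300 bases from 250 before to 50 after the start, on both strands, the CCGGAAG core was found in 11 of these 26 (42.3%) and in 9.12% of 27025 promoters of the same length. The run at the start was found in 7 members (26.9%) and in 9.95% of all promoters. The letters AAGATGG, part of the motif of the factor YY1, were found in 6 members (23.1%) and in 6.48% of all promoters. Of the 12 lower members with an entry, 7 had the CCGGAAG core, 3 the run and 2 the AAGATGG letters, against 4, 4 and 4 of the other 14. These are matches of letters and say nothing of binding.

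Rps18 encodes a protein of the head of the small subunit. In muscle it measured 12.33, 11.88 and 11.59 in the 3 B6 low-fat arrays and 9.17, 7.67, 6.80 and 9.06 in the 4 B6 high-fat arrays. In 129S6 muscle it measured 7.90, 11.71, 11.94 and 11.69 on the low-fat diet and 11.72, 11.75, 11.63 and 11.86 on the high-fat diet. All 4 B6 high-fat arrays lay below every array of the other groups except 129S6 low-fat replicate 9, the array at 7.90. The B6 mean was 8.18 ± 1.15 (SD, n = 4) on the high-fat and 11.93 ± 0.37 (SD, n = 3) on the low-fat diet, a difference of -3.76 (SE 0.80, limma adjusted p = 0.0108) or 13.5-fold.

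Rps3a1 encodes a protein of the small subunit platform that lies near the mRNA exit. Its B6 levels were 11.30, 10.84 and 10.63 on the low-fat diet and 8.72, 6.91, 6.29 and 8.66 on the high-fat diet. In 129S6 it measured 8.17, 11.13, 11.29 and 10.99 on the low-fat diet and 11.31, 11.03, 11.04 and 11.07 on the high-fat diet. The same array of the 129S6 low-fat group, replicate 9, was again the low one. The B6 diet difference was -3.28 (SE 0.69, limma adjusted p = 0.0104), 9.71-fold.

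Rps7, another small subunit gene, measured 11.28, 10.76 and 9.92 in low-fat B6 arrays and 8.25, 7.81, 7.12 and 8.18 in high-fat ones. No array of one diet reached the range of the other, and the difference of the means was -2.81 (SE 0.61, limma adjusted p = 0.0117). Rps4x, the X-linked copy of the Rps4 gene, differed by -2.57 (SE 0.72, limma adjusted p = 0.0236), and its B6 high-fat arrays spread from 6.68 to 9.67.

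Rps3 (a protein of the mRNA entry channel), Rps10 and Rps19 (the gene most often mutated in Diamond-Blackfan anaemia) and Rpl7a are named because they stayed past the threshold in each of the 7 fits that left out 1 array of the B6 groups, a choice made after their values were seen. Rps3 measured 11.35, 10.95 and 10.82 on the low-fat and 8.89, 9.20, 8.40 and 8.75 on the high-fat diet in B6, and differed by -2.23 (SE 0.30, limma adjusted p = 0.00235). Rps10 measured 11.06, 10.58 and 10.56 against 8.74, 8.54, 7.87 and 8.49, and differed by -2.33 (SE 0.44, limma adjusted p = 0.00715). Rps19 measured 8.46, 8.23 and 8.32 against 7.10, 6.63, 6.39 and 6.68, and differed by -1.63 (SE 0.24, limma adjusted p = 0.00274). The high-fat arrays of these 3 genes lay closer together than those of Rps18 and Rps3a1, with SDs of 0.33, 0.37 and 0.30 (n = 4).

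Of the large subunit genes, Rpl7a measured 11.11, 10.58 and 10.19 in B6 on the low-fat and 8.31, 7.90, 7.54 and 8.43 on the high-fat diet. Its means were 10.63 ± 0.46 (SD, n = 3) and 8.05 ± 0.41 (SD, n = 4), a difference of -2.58 (SE 0.47, limma adjusted p = 0.0063) or 5.98-fold. Rpl8, whose protein contacts the centre where peptide bonds form, measured 11.26, 10.85 and 10.66 against 8.54, 7.46, 8.04 and 8.20, a difference of -2.86 (SE 0.68, limma adjusted p = 0.0148). The groups of both genes were apart on every array. Rpl6 differed by -2.71 (limma adjusted p = 0.0211) and Rpl19 by -2.66 (limma adjusted p = 0.0106). Rpl41, which encodes the shortest of the ribosomal proteins, measured 12.75, 12.70 and 12.66 against 11.11, 10.64, 10.01 and 11.11 and differed by -1.99 (SE 0.52, limma adjusted p = 0.0204). Rpl10a and Rpl7 differed by -2.30 and -2.07 (limma adjusted p = 0.0204 and 0.0231).

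The members that rose in B6 muscle did so by less. These 4 of 33 are a smaller share than the 14.8% of all genes that were higher. Genes with a muscle mean below 9 had a median difference of 0.18 in this comparison. Rps14 measured 4.84, 5.14 and 5.14 on the low-fat and 5.53, 5.80, 5.63 and 5.62 on the high-fat diet, a difference of 0.60 (SE 0.16, limma adjusted p = 0.0194). Rps29, a small zinc-binding protein of the small subunit, measured 6.88, 7.07 and 7.15 against 7.34, 7.65, 7.86 and 7.41, a difference of 0.53 (SE 0.15, limma adjusted p = 0.0235). Neither gene's groups overlapped. Rps13 differed by 0.54 (limma adjusted p = 0.0233) and Rpl38, the gene mutated in the tail-short mouse, by 0.54 (limma adjusted p = 0.0475), with overlapping groups for Rpl38. Rpl32 had a difference of 1.12 that did not pass (SE 0.49, limma adjusted p = 0.094), with arrays at 6.62, 7.42 and 7.48 against 8.88, 8.18, 8.49 and 7.65.

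Some of the brightest members had small differences in the same arrays. Rps24 measured 11.73, 11.93 and 12.06 on the low-fat and 11.88, 12.13, 11.89 and 12.13 on the high-fat diet in B6 (difference 0.10, limma adjusted p = 0.553). Rps28 measured 12.73, 12.54 and 12.65 against 12.32, 12.67, 12.40 and 12.65 (difference -0.13, limma adjusted p = 0.689). Their groups overlapped. Of the 16 members with a muscle mean of 9 or more, 12 were lower and 1 (Rps13) was higher, with a median difference of -2.45. Of the other 17 members 2 were lower and 3 higher, with a median of 0.35. Among all 498 genes of that level, 35.9% were lower and the median difference was -0.45. The paralogs did not pass: Rps27l differed by 0.81 (limma adjusted p = 0.0545), Rpl39l by 0.33, Rpl7l1 by 0.29 and Rps4l by -0.04.

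**Figure D2:**
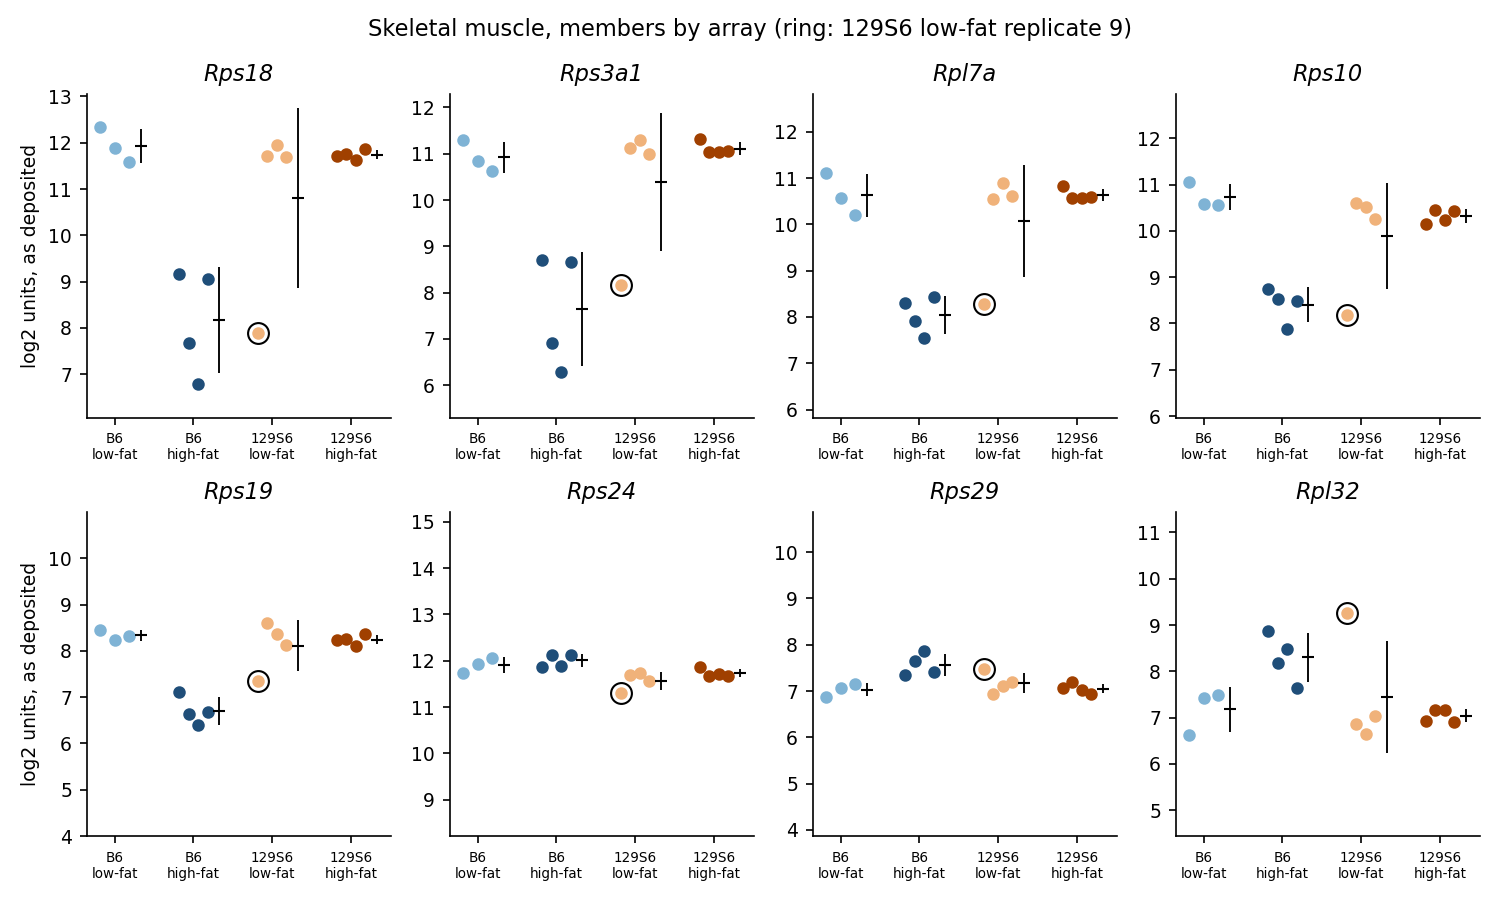
Levels of 8 members on each muscle array, in log2 units as deposited, by group of strain and diet, with the mean and SD of each group beside the points. In the first 5 genes (Rps18, Rps3a1, Rpl7a, Rps10 and Rps19) the 4 B6 high-fat arrays and 129S6 low-fat replicate 9 (ringed) lie below the other arrays. For Rps24 the B6 high-fat arrays lack this drop, while replicate 9 is the lowest array, at 11.29. Rps29 and Rpl32 are higher in B6 on the high-fat diet, although the difference of Rpl32 did not pass the test.

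The strain comparison on the high-fat diet uses the same 4 B6 high-fat arrays and is not independent of the diet comparison. In it 14 members were lower in B6 than in 129S6 and 3 were higher (51.5% of members), against 13.7% of all genes lower and 15.5% higher. The 14 lower members were the ones named above for diet. Rps18 differed by -3.56 (SE 0.74, limma adjusted p = 0.0064, 11.8-fold) from a 129S6 mean of 11.74 ± 0.10 (SD, n = 4), and Rps3a1 by -3.47 (SE 0.64, limma adjusted p = 0.00391, 11.1-fold). Rps7 and Rps3 differed by -3.21 and -2.16 (limma adjusted p = 0.00318 and 0.000869). Among large subunit genes, Rpl19 differed by -2.94, Rpl6 by -2.75, Rpl7a by -2.59 and Rpl8 by -2.55 (limma adjusted p = 0.00324, 0.0115, 0.00258 and 0.0122). The higher members were Rpl38 by 0.56, Rps29 by 0.51 and the paralog Rpl7l1 by 0.42 (limma adjusted p = 0.0315, 0.0175 and 0.0494). Their share was below that of all genes. Among genes with a muscle mean of 9 or more, 39.6% were lower in this comparison, against 12 of 16 members.

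**Figure D3:**
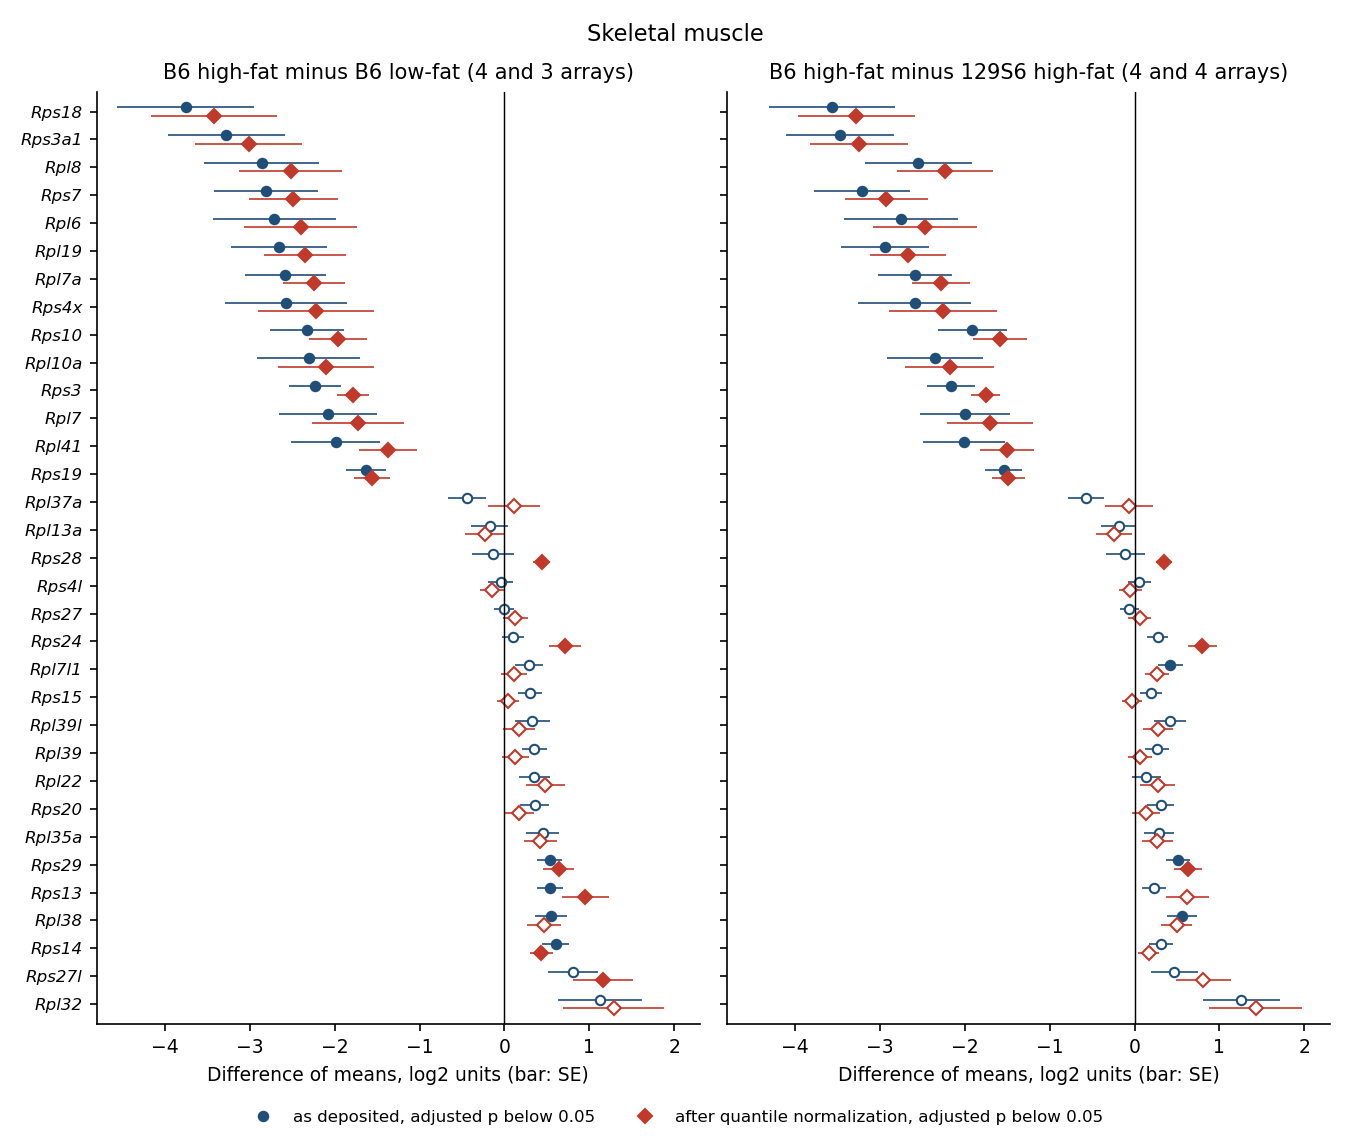
Difference of group means of each of the 33 members in muscle, with its standard error, for B6 high-fat minus B6 low-fat (left) and B6 high-fat minus 129S6 high-fat (right), both with the same B6 high-fat arrays. Blue circles are deposited values and red diamonds values after quantile normalization, filled where the adjusted p is below 0.05. The same 14 genes are filled on the negative side in both panels and under both scalings.

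Quantile normalization within muscle, which gives every array the same distribution of values, left the 14 lower members lower in both comparisons. For diet in B6 it gave 14 lower and 6 higher (all genes 10.8% and 10.6%), and for strain on the high-fat diet 14 lower and 3 higher (all genes 13.2% and 13.3%). Rps24 and Rps28 were among the higher ones for diet after this step. With the SD of each array as a covariate, 3 members were lower for diet in B6 (Rpl7a, Rps3 and Rps19, against 0.376% of all genes), and 5 for strain (Rpl7a, Rpl19, Rps3, Rps7 and Rps19, against 0.788%). Under that covariate Rps18 had a diet difference of -0.94 (limma adjusted p = 0.181) and Rpl7a one of -0.92 (limma adjusted p = 0.0312). The count of 18 for diet in B6 became 4 without B6 low-fat replicate 13, and 10 without B6 low-fat replicate 14 or B6 high-fat replicate 7.

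Other values moved with these arrays. The median of the 16 brightest members was 7.71 to 8.95 in the 5 narrow arrays and 10.43 to 11.27 in the other 10, and the median of the dimmer 17 was 5.96 to 6.43 and 5.99 to 6.38. Other genes with a mean of 9 or more had medians of 9.03 to 9.62 and 9.84 to 10.02. The summed level of the 5 skeletal muscle genes was 29900, 38500, 30700 and 45900 in the B6 high-fat arrays and 45900 to 55300 in the B6 low-fat arrays. That of the 4 measured erythroid genes (of 7 listed) was 690 to 1500 and 5030 to 14600. The 7 measured lymphocyte genes (of 9) summed to 759 to 924 and 1390 to 1710, and the 8 macrophage genes to 1010 to 1160 and 1300 to 2330. Adipocyte genes summed to 1140 to 1500 in B6 high-fat and 1530 to 1940 in B6 low-fat muscle, and the 3 measured epididymis genes (of 5) to 153 to 193 and 121 to 128. In the strain comparison, 129S6 high-fat muscle had sums of 50700 to 53700 for skeletal muscle, 4820 to 5480 for erythroid and 129 to 146 for epididymis genes, none overlapping the B6 high-fat range. The 8 measured proliferation genes (of 10) summed to 1470 to 1880 in B6 and 1030 to 1280 in 129S6 on the high-fat diet. No marker was at 0. The 3′ minus 5′ difference of the Gapdh control probe sets, a sign of RNA integrity, averaged 2.38 in B6 high-fat and 0.63 in B6 low-fat muscle (exact permutation test, two-sided p = 0.0571, 0.171 adjusted over 24 such tests). For the array SD the exact permutation test gave p = 0.0286, the least that these group sizes can give, and 0.114 after adjustment. Apart from the fits with the array SD or the Gapdh difference as a covariate, the part of these differences in the result was not tested. Under the Gapdh covariate 76 of the 78 named calls of all comparisons kept direction and threshold, and 2 kept direction only.

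**Figure D4:**
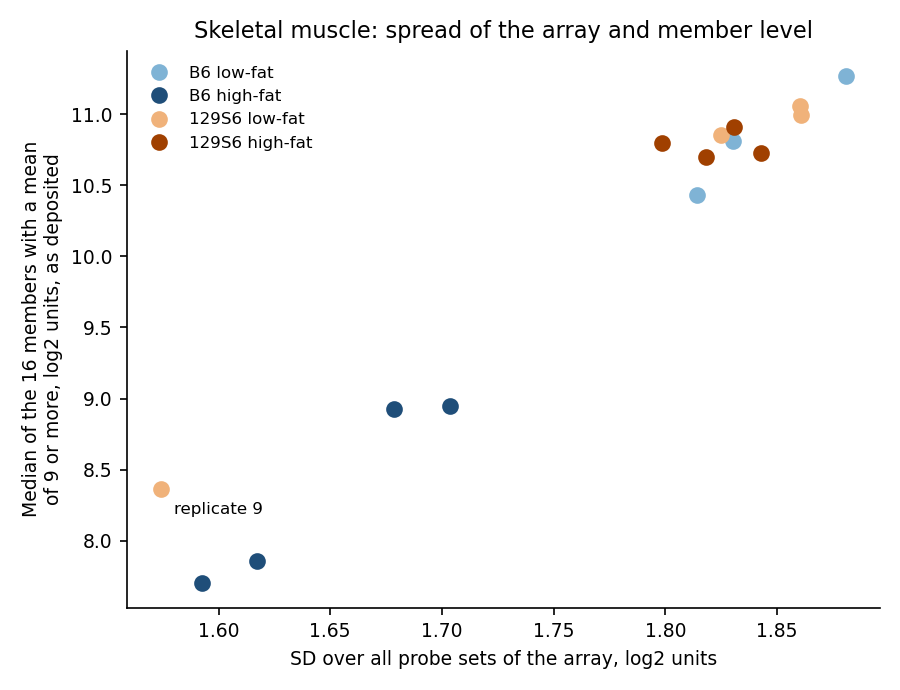
Median of the 16 members with a mean of 9 or more against the SD over all probe sets, for each of the 15 muscle arrays, both in log2 units. The 4 B6 high-fat arrays and 129S6 low-fat replicate 9 lie at SDs of 1.57 to 1.70 and medians of 7.71 to 8.95, and the other 10 arrays at SDs of 1.80 to 1.88 and medians above 10.4.

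In 129S6 muscle no member differed between the diets, as for all genes (0% past the threshold, 151 genes at an unadjusted p under 0.05, among them 1 member). The smallest p belonged to the paralog Rps4l, with a difference of -0.33 (limma adjusted p = 0.993). Between the strains on the low-fat diet no member passed either (all genes 0.279%), and 2 members had an unadjusted p under 0.05, Rps13 at -0.43 and Rps24 at 0.34 (limma adjusted p = 0.627 and 0.679). Replicate 9 widened the spread of the 129S6 low-fat group. Rps18 there had a mean of 10.81 ± 1.95 (SD, n = 4). Without replicate 9 both comparisons again had no member past the threshold.

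The diet difference in B6 muscle was itself tested against that in 129S6. In this interaction 8 members were lower (all genes 2.53%) and none higher (all genes 0.654%), 19 at an unadjusted p under 0.05. With the array SD as a covariate no member was lower, against 0.0242% of all genes. Rps18 had an interaction of -4.69 (SE 1.10, limma adjusted p = 0.04), Rps3a1 of -4.00, Rps7 of -3.50, Rpl19 of -3.30 and Rpl7a of -3.14 (limma adjusted p = 0.0403, 0.0415, 0.0397 and 0.0321). Rps10, Rps3 and Rps19 were the other 3. Most of these adjusted p-values lay close to the threshold. The count fell to 0 without B6 low-fat replicate 13 or 14, B6 high-fat replicate 7 or any of the 4 129S6 high-fat arrays, to 1 without B6 high-fat replicate 6 and to 2 without B6 low-fat replicate 15. It was 12 without 129S6 low-fat replicate 9, 13 without replicate 10 of that group and 16 without B6 high-fat replicate 5.

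In B6 liver a part of the ribosomal protein genes, mostly bright ones, was also lower on the high-fat diet, by smaller amounts. Of the 33 members 14 were lower and 2 higher (48.5%), against 12.0% and 6.21% of all genes. The lower members were 5 small subunit genes (Rps3a1, Rps7, Rps10, Rps18 and Rps28), 8 large subunit genes (Rpl6, Rpl7a, Rpl8, Rpl10a, Rpl19, Rpl37a, Rpl38 and Rpl41) and the paralog Rps27l. The higher ones were Rps29 and Rpl32, a share near that of all genes. The median difference was -0.41 for members and 0.02 for all genes.

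Rpl7a measured 10.55, 10.60, 10.65 and 10.83 in the B6 low-fat liver arrays and 10.05, 9.68, 9.87 and 9.80 in the B6 high-fat ones. In 129S6 liver it measured 10.20, 9.97, 10.57 and 10.37 on the low-fat diet and 9.89, 10.14, 10.32 and 9.86 on the high-fat diet. The B6 groups were apart, and the 129S6 arrays lay between and over them. The B6 means were 9.85 ± 0.16 and 10.66 ± 0.12 (SD, n = 4 each), a difference of -0.81 (SE 0.13, limma adjusted p = 0.000575).

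Rpl10a measured 9.56, 9.80, 9.93 and 9.93 on the low-fat and 9.37, 8.88, 8.98 and 8.86 on the high-fat diet, a difference of -0.79 (SE 0.15, limma adjusted p = 0.00162). Rps18 measured 11.70, 11.60, 11.50 and 11.70 against 11.10, 10.77, 10.84 and 10.93, a difference of -0.71 (SE 0.12, limma adjusted p = 0.000665). Rps3a1 measured 10.57, 10.64, 10.53 and 10.65 against 10.15, 9.94, 9.79 and 9.85, a difference of -0.67 (SE 0.11, limma adjusted p = 0.0005). All 4 high-fat arrays were below all 4 low-fat arrays in these genes. Rps7, Rpl8 and Rpl37a differed by -0.64, -0.55 and -0.53 (limma adjusted p = 0.0007, 0.00118 and 0.00786). Rps27l, a paralog of Rps27 that p53 can induce, measured 8.69, 8.01, 8.46 and 8.29 against 7.33, 7.74, 7.65 and 7.97, a difference of -0.69 (SE 0.17, limma adjusted p = 0.0107).

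The exceptions were small in number. Rpl32 measured 6.92, 6.42, 6.48 and 6.21 on the low-fat and 6.98, 7.12, 7.15 and 7.16 on the high-fat diet, a difference of 0.59 (SE 0.16, limma adjusted p = 0.018). Rps29 measured 6.75, 6.47, 6.38 and 6.27 against 6.89, 6.83, 7.01 and 6.78, a difference of 0.41 (SE 0.11, limma adjusted p = 0.0198). In both genes B6 low-fat replicate 1 was the low-fat array nearest to the high-fat group. Rps4x, Rps3 and Rps24 had differences of -0.52, -0.28 and -0.16 that did not pass (limma adjusted p = 0.0585 for Rps4x).

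**Figure D5:**
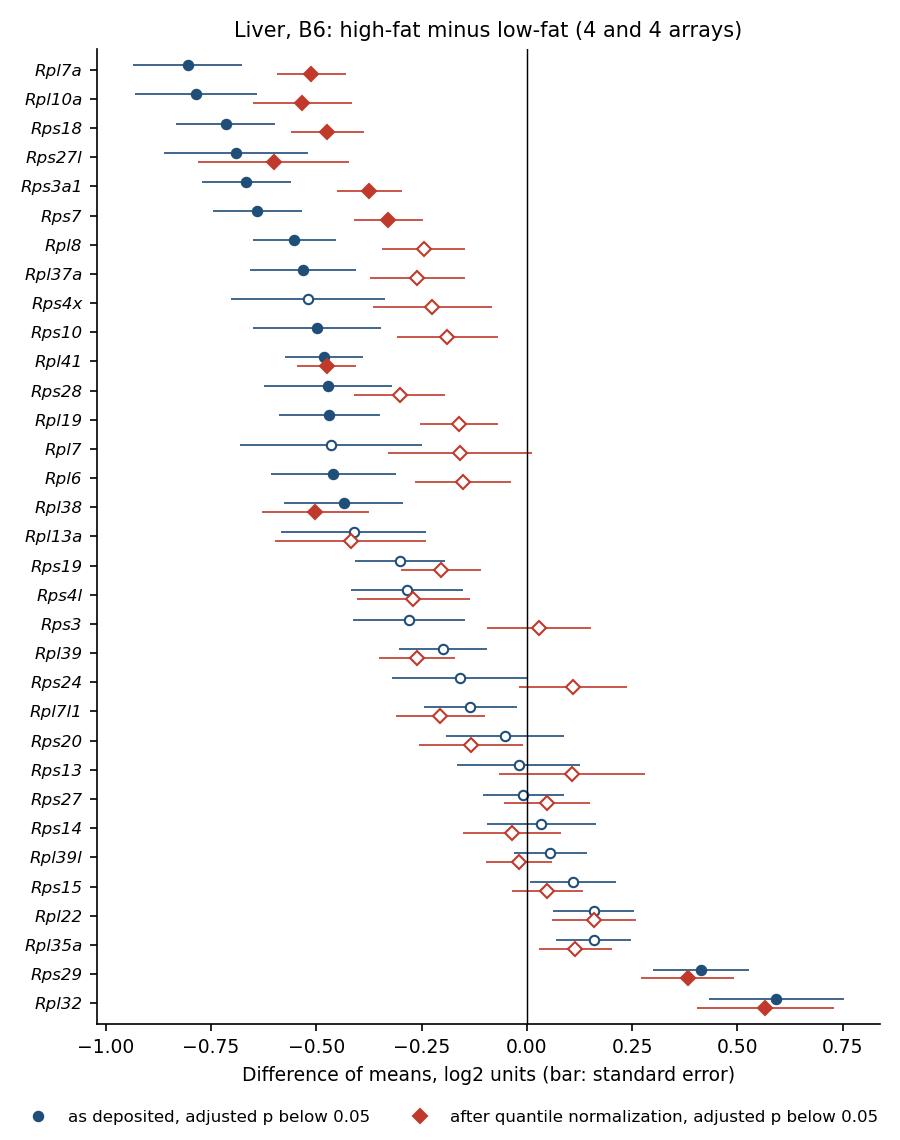
Difference of group means (high-fat minus low-fat) with its standard error in B6 liver for each of the 33 members, 4 arrays per group, in log2 units. Blue circles are deposited values and red diamonds values after quantile normalization, filled where the adjusted p is below 0.05. Of the 14 members filled in blue on the negative side, 8 are also filled in red, and most red diamonds of the bright members lie nearer to 0.

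The lower members were mostly bright ones. Of the 16 members with a liver mean of 9 or more, 12 were lower and none higher (median -0.51), against 34.7% lower among the 686 genes of that level (median -0.28). Of the other 17 members 2 were lower and 2 higher (median -0.02). After quantile normalization within liver, 8 members stayed lower (all genes 9.44%) and 2 higher (all genes 6.13%). The 8 were Rpl7a, Rpl10a, Rpl38, Rpl41, Rps3a1, Rps7, Rps18 and Rps27l, and the median difference became -0.20. The count of 16 became 9 without B6 low-fat replicate 4. With the array SD as a covariate it was 8, and the share of all genes under that covariate is not given here. The B6 low-fat liver arrays had a mean array SD of 1.94, against 1.86 in the B6 high-fat ones (two-sided exact permutation p = 0.0286, the least these sizes can give, 0.114 adjusted over 24). Their mean Gapdh 3′ minus 5′ difference was 1.26, against 0.30. These 4 arrays also share a run of array numbers in their titles that no other liver group has, so this run and the group cannot be told apart. Erythroid genes summed to 3400 to 6670 in B6 low-fat and 2430 to 3040 in B6 high-fat liver, and macrophage genes to 1600 to 1990 and 1800 to 5630. Proliferation genes summed to 769 to 955 and 1010 to 1150, and skeletal muscle genes to 814 to 916 and 1020 to 1880. The part of these sums in the result was not tested.

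The members lower on the high-fat diet in both B6 liver and B6 muscle numbered 10 of the 14 in either list (71.4%). Over all genes 389 were lower in both, 39.3% of those lower in liver and 39.1% of those lower in muscle. Among genes with a mean of 9 or more in both tissues, 74 were lower in both, 79.6% and 65.5% of the lower ones, and the 15 members of that level gave 9, or 81.8% and 75%. The 10 shared members were Rps3a1, Rps7, Rps10, Rps18, Rpl6, Rpl7a, Rpl8, Rpl10a, Rpl19 and Rpl41. These comparisons share no arrays. Rps29 was higher in both. Rpl38 fell in liver and rose in muscle.

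In 129S6 liver no member differed between the diets (all genes 0.230%), and 1 had an unadjusted p under 0.05, Rps28 at -0.36 (SE 0.15, limma adjusted p = 0.732), against 527 of all genes. The interaction test found 2 members lower (6.06%), a share near that of all genes (4.63%), and none higher (all genes 0.861%). These were Rpl8 at -0.61 (SE 0.14, limma adjusted p = 0.0174) and Rpl41 at -0.56 (SE 0.13, limma adjusted p = 0.0191), and both passed in each of the 16 fits that left out 1 array. After quantile normalization 1 of them was left (all genes 2.75% lower): Rpl41 differed by -0.53 and Rpl8 by -0.29 (limma adjusted p = 0.00768 and 0.26). Rpl41 measured 12.77, 12.70, 12.71 and 12.75 in B6 low-fat, 12.49, 11.99, 12.39 and 12.15 in B6 high-fat, 12.41, 12.38, 12.50 and 12.48 in 129S6 low-fat and 12.48, 12.57, 12.59 and 12.47 in 129S6 high-fat liver. Its B6 low-fat arrays were above all others. That group alone makes up its run of array numbers, so run and group cannot be told apart here. Leaving out 1 array does not separate them. The count of members in the interaction was 5 without B6 low-fat replicate 1 or B6 high-fat replicate 13, and 7 without 129S6 low-fat replicate 11.

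Between the strains, on the low-fat diet Rpl41 was higher in B6 liver by 0.29 (SE 0.09, limma adjusted p = 0.0475), while Rpl32 and Rps29 were lower by -0.53 and -0.36 (limma adjusted p = 0.0388 and 0.0457). Of all genes 10.0% were higher and 3.83% lower. Here too the 2 groups share no run of array numbers, and macrophage genes summed to 1600 to 1990 in B6 and 1110 to 1450 in 129S6 low-fat liver, erythroid genes to 3400 to 6670 and 2420 to 3250. The count of 3 became 0 without any 1 of B6 low-fat replicates 2, 3 and 4 or 129S6 low-fat replicates 5 and 6, and 8 without 129S6 low-fat replicate 11. On the high-fat diet Rps18 and Rps3a1 were lower in B6 by -0.48 and -0.46 (SE 0.12 and 0.11, limma adjusted p = 0.0267 and 0.0175), with groups that did not overlap (8.31% of all genes had B6 wholly below 129S6). The B6 and 129S6 high-fat liver arrays belong to separate runs of array numbers, so these 2 groups alone cannot tell strain from run. The 129S6 low-fat group has arrays of both runs, which lets the run be fitted as a block. Under that block Rps18 and Rps3a1 kept direction and threshold, with the run difference resting on that group. Erythroid genes summed to 2430 to 3040 in B6 and 3370 to 4810 in 129S6 high-fat liver. The part of these sums in the strain differences was not tested. Of all genes 2.13% were lower and 3.03% higher. This count of 2 became 6 without B6 high-fat replicate 13, 1 without replicate 14, and 0 without B6 high-fat replicates 15 or 16 or 129S6 high-fat replicates 8 or 9.

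In epididymal fat no member passed the test in any of the 5 comparisons. Over all genes the share was 0.279% for diet in B6, 0.751% for diet in 129S6, 1.08% for strain on the low-fat diet, 0.436% for strain on the high-fat diet and 0% for the interaction. At an unadjusted p under 0.05 the members numbered 2, 2, 0, 2 and 0, and all genes 1255, 1148, 766, 709 and 232. The median difference over members was between -0.0042 and 0.0316, and the median SE of a member 0.167 to 0.193 for the diet and strain comparisons. Leaving out B6 high-fat replicate 7 gave 1 member for strain on the high-fat diet. On that diet the B6 and 129S6 fat arrays belong to separate runs of array numbers, so these groups alone cannot tell strain from run.

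Rps18 and Rpl7a, both lower in B6 muscle on the high-fat diet, did not pass the test in fat. Rps18 measured 11.90, 12.20, 11.94 and 11.70 in B6 low-fat fat pads, 11.67, 11.68, 12.15 and 11.85 in B6 high-fat, 11.65, 11.80 and 11.54 in 129S6 low-fat and 11.04, 11.69 and 11.66 in 129S6 high-fat ones. Rpl7a measured 10.42, 10.56, 10.07 and 10.08, then 10.31, 10.28, 10.70 and 10.60, then 10.30, 10.17 and 10.30, and 10.44, 10.45 and 10.50 in the same order of groups. The groups of the 2 diets overlapped in both genes in B6 and for Rps18 in 129S6, and those of Rpl7a in 129S6 did not overlap but did not pass the test. The smallest p for diet belonged to Rpl13a, a large subunit gene, at 6.89 ± 0.36 against 6.44 ± 0.15 in B6 (SD, n = 4 each), a difference of 0.45 (limma adjusted p = 0.266), and at 6.85 ± 0.21 against 6.20 ± 0.10 in 129S6 (SD, n = 3 each), a difference of 0.65 (limma adjusted p = 0.168). The Gapdh 3′ minus 5′ difference reached 6.03, 5.81 and 5.93 in 3 high-fat fat arrays. The 3 measured epididymis genes (of 5) summed to 156 to 10600 in the low-fat and 198 to 7760 in the high-fat arrays. In 129S6 fat, adipocyte genes summed to 10500 to 12600 on the low-fat and 15400 to 17100 on the high-fat diet. Macrophage genes summed to 2540 to 3690 and 4210 to 8420, and lymphocyte genes to 1130 to 1650 and 681 to 1060. Erythroid genes summed to 9100 to 11400 and 4240 to 8520. In B6 fat the ranges of these lists overlapped between the diets. Apart from the fits with the Gapdh difference as a covariate, their part in these values was not tested.

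Between tissues, taken as the mean over the 4 groups of strain and diet, 15 members were higher (45.5%) and 6 lower (18.2%) in fat than in liver, against 29.1% and 28.7% of all genes. In muscle against liver 11 were higher (33.3%) and 12 lower (36.4%), against 43.4% and 24.6% of all genes. In fat against muscle 17 were higher (51.5%) and 12 lower (36.4%), against 30.4% and 41.1% of all genes. Without the 5 narrow muscle arrays, over the 3 groups other than B6 high-fat, fat against liver had 14 higher and 7 lower (all genes 29.0% and 27.6%), muscle against liver 14 and 3 (33.8% and 23.6%) and fat against muscle 5 and 12 (28.0% and 32.4%).

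Rpl41 had its highest level in fat, at 13.45 against 12.49 in liver (difference 0.96, SE 0.16, limma adjusted p = 4.52e-06) and 12.05 in muscle (difference 1.40, limma adjusted p = 3.1e-09), and its group means were 13.32 to 13.58 in fat, 12.25 to 12.73 in liver and 10.72 to 12.73 in muscle. Without the narrow arrays its fat minus muscle difference was 0.73. The paralog Rps4l was lowest in muscle, at 5.99 against 7.16 in liver (difference -1.17, SE 0.11, limma adjusted p = 8.72e-12) and 7.27 in fat, where its difference from muscle was 1.28 (limma adjusted p = 2.85e-12). Its 4 group means were 5.87 to 6.20 in muscle and 7.01 to 7.49 in the other tissues, and the differences were -1.22 and 1.31 without the narrow arrays. This rests on 1 probe set: the other Rps4l probe set had differences of -0.02 for muscle minus liver and -0.061 for fat minus muscle (limma adjusted p = 0.84 and 0.465). Rpl32 and the paralog Rps27l were lowest in fat. Rpl32 differed by -0.93 from liver (limma adjusted p = 8.85e-06) and by -1.52 from muscle (limma adjusted p = 5.67e-10), the latter -0.98 without the narrow arrays. Rps27l differed by -0.64 from liver and by -1.31 from muscle (limma adjusted p = 7.12e-05 and 6.38e-11), the latter -1.12 without them.

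In muscle, Rps28 and Rps24 were above their liver levels by 0.73 and 0.69 (limma adjusted p = 1.66e-07 and 2.07e-10), and by 0.74 and 0.63 without the narrow arrays. The other Rps24 probe set had a muscle minus liver difference of -0.10 (limma adjusted p = 0.162). Rpl19, Rpl8, Rps7, Rps18 and Rpl6 were lower in muscle than in liver by -0.76, -0.75, -0.72, -0.71 and -0.70 over all arrays. Without the narrow arrays these 5 differences were 0.07, 0.08, 0.13, 0.29 and 0.15, the opposite direction.

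Probe sets of a gene did not always agree. In the diet comparison of B6 muscle the brightest of 3 Rps28 probe sets had a difference of -0.13, another one of -2.30 (limma adjusted p = 0.00611) and the last one of 0.73. In B6 liver that other Rps28 probe set had a difference of -0.75 (limma adjusted p = 0.000121). Of 5 Rps4x probe sets, the brightest fell in B6 muscle by 2.57 while the others had differences of 0.08 to 0.69. The second probe sets of Rpl10a, Rpl19 and Rpl7 had muscle differences of -0.44, 0.10 and 0.33, and that of Rpl10a had a liver difference of -0.61 (limma adjusted p = 0.0399). Ribosomal protein genes have many near-identical pseudogenes, and which transcripts a probe set also binds was not tested. The 38 probe sets that list a ribosomal protein symbol with others gave 25 lower and none higher for diet in B6 liver (median -0.55). Of all genes 12.0% were lower and 6.21% higher there. For diet in B6 muscle they gave 21 lower and 2 higher (median -1.20), against 12.0% and 14.8% of all genes. Among genes with a mean of 9 or more, 34.7% were lower in liver and 35.9% in muscle. These probe sets were measured on the same arrays as the members, the narrow ones included, and are not independent of them. In fat none of the 38 passed.

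Genes that work beside the ribosomal proteins are given from lists of other ribosome components, initiation and elongation factors, ribosome assembly factors and TOR signalling. Their counts stand beside 12.0% of all genes lower and 14.8% higher in B6 muscle, and 12.0% lower and 6.21% higher in B6 liver. The muscle values rest on the 4 narrow B6 high-fat arrays and are given as deposited only. Among genes with a muscle mean of 9 or more 35.9% were lower. With the array SD as a covariate 0.376% of all genes were lower, and the counts of these lists under it are not given here. In B6 muscle on the high-fat diet, 2 of 3 other ribosome components were lower, Rplp0 of the large subunit stalk by -2.95 and Rpsa of the small subunit by -1.87 (limma adjusted p = 0.0225 and 0.0063). Of 15 elongation factors and other genes with TOP mRNAs 5 were lower and 2 higher (median -0.89). They included Eef2, which moves the ribosome along the mRNA, at 6.68 against 10.49 (difference -3.81, SE 0.73, limma adjusted p = 0.00751), and Eef1a1, which brings in the aminoacyl-tRNA, at 8.21 against 10.42 (difference -2.21, limma adjusted p = 0.0221). Of 25 initiation factor genes 7 were lower and 1 higher. Eif3k fell by 2.02 and Eif2b1 by 1.08 (limma adjusted p = 0.00274 and 0.00235), and Eif4e, which binds the mRNA cap, rose by 0.94 (limma adjusted p = 0.0214). Of 31 ribosome assembly genes 9 were lower and 3 higher, with the nucleolar protein gene Ncl at -3.08 (limma adjusted p = 0.00579) and Nop58 at 0.95 (limma adjusted p = 0.0153). Of 13 TOR and S6 kinase pathway genes 2 were lower (Akt2 and Tsc2) and 2 higher, shares near those of all genes.

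In B6 liver the shares of the elongation, assembly and TOR lists that were lower were near that of all genes. Rplp0 differed by -0.59 (limma adjusted p = 0.000836) and was the single one of 3 other components past the threshold. Of 15 elongation factors and other TOP genes 2 were lower, Btf3 and Naca, which act on nascent chains, by -0.76 and -0.59, and 1 was higher (Eif3f by 0.40). Of 25 initiation factor genes 5 were lower, led by Eif3k at -0.51 (limma adjusted p = 0.00487). Of 31 ribosome assembly genes 4 were lower and 1 higher (Bop1 by 0.47). Nhp2 and Nop10, both of the H/ACA particles that modify ribosomal RNA, were lower by -0.79 and -0.87 (limma adjusted p = 2.77e-05 and 0.000184). Of 13 TOR pathway genes 2 were lower, Akt1 by -0.42 and Tsc2 by -0.28. In fat no gene of these lists passed in any comparison.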

How the data were processed

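The 45 samples are Affymetrix mouse arrays, 1 per RNA pool. The deposited values are log2 expression values that the authors made with RMA, per the submitters' processing notes. Its version, and whether the tissues were normalized together, were not given in the sources used here. Array medians lay between 6.07 and 6.24, but array SDs between 1.57 and 1.98, so the deposited distributions are not identical. Of 12488 probe sets, 66 are controls, 10833 list 1 gene symbol, 396 several and 1193 none in the platform annotation, and 10817 of the 10833 matched RefSeq by Entrez ID.

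A gene was represented by its brightest probe set in the tissue, which left 8251 genes. limma 3.58.1 (R 4.3.3, lmFit and eBayes) was fitted per tissue on 4 groups, and on all 12 groups for tissue differences, with Benjamini-Hochberg adjustment. The fit was tested on simulated data: of 200 genes changed by 1 log2 unit, 195, 150 and 157 were recovered for diet in B6 in liver, muscle and fat. The simulated noise was independent for each gene, without shifts shared by an array, so it does not cover the narrow muscle arrays. Alternatives included quantile normalization within the tissue, array SD or Gapdh 3′ minus 5′ as covariates, other probe set choices and leaving out each array. Replicate numbers shared between tissues did not pair arrays. A probe set depends on few arrays per group, which limits precision.

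Members and lists were chosen with earlier results of these data known. Named members are up to 8 each way per comparison that passed with the largest difference and no overlap, up to 5 each way for interactions, 6 each way for tissues, the 2 smallest p each way where under 3 passed, all paralogs, and up to 3 genes each way of other lists. Other members named were chosen after their values were seen. Figures were drawn with matplotlib 3.10.9.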

Additional observations from a re-analysis of the deposited data

Results flagged for a closer look

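In groups of 4 arrays, the highest or lowest array was compared with its nearest neighbour relative to the range of the group (Dixon's test). It was run 144 times, each on 1 array measure or 1 chosen member in 1 group, and set apart 15 values. Chance would set apart about 1 in 20 of independent tests. These tests share arrays, so the count cannot be set against that rate. Most belonged to 129S6 low-fat muscle replicate 9. Its median over members was 7.85 (8.07 after quantile normalization), against 9.14 to 9.17 in the other 3 arrays, and its array SD was 1.57. It measured 7.90 for Rps18, 8.17 for Rps3a1, 8.06 for Rps7, 8.28 for Rpl7a, 7.25 for Rpl8, 9.70 for Rps3 and 9.98 for Rpl41, each below the rest of its group. For Rpl32 it measured 9.26, against 6.65 to 7.02 in the rest. In 129S6 high-fat muscle, replicate 1 was the highest array for Rps3a1 (11.31) and Rpl7a (10.82). In B6 low-fat liver, replicate 3 was the lowest for Rps3, at 10.63. In 129S6 low-fat liver, replicate 11 had a Gapdh 3′ minus 5′ difference of 3.26, against 0.13 to 0.41.

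The diet difference itself differed between the strains by the interaction test of limma for 10 members, 2 in liver (6.06%) and 8 in muscle (24.2%). Of all genes 4.63% were lower in the liver test, near the share of members, and 2.53% in the muscle test. In liver the members were Rpl41 (-0.56) and Rpl8 (-0.61). In muscle they were Rpl19 (-3.30), Rpl7a (-3.14), Rps10 (-2.75), Rps18 (-4.69), Rps19 (-1.77), Rps3 (-2.42), Rps3a1 (-4.00) and Rps7 (-3.50), all of which rest on the B6 high-fat arrays of narrow spread. With the array SD as a covariate none of these 8 passed, and after quantile normalization Rpl8 in liver did not (limma adjusted p = 0.26).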

How the results depend on the processing

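Counts are members past the threshold with limma, out of 33 unless stated. Shares of all genes under each alternative are not printed in this section, so a changed count need not be particular to the members. With the array SD as a covariate they were 8 (liver, diet in B6), 1 and 5 (liver, strain on low-fat and high-fat), 3 (muscle, diet in B6), 5 (muscle, strain on high-fat), 0 (muscle interaction) and 15 (fat minus muscle), and the muscle minus liver median became 0.23. With the Gapdh covariate they were 6, 5 and 9 (liver strain on low-fat, on high-fat, and interaction) and 17 (muscle interaction). Quantile normalization gave 10 (liver, diet in B6) and 1 (liver interaction). Fitting the compared groups alone gave 0 and 6 for liver strain on low-fat and high-fat. Adding the 38 several-symbol probe sets to the 33 members, an alternative chosen after seeing the data, made a set of 71. Of these 71, 41, 10, 8 and 12 passed in liver (diet in B6, strain on low-fat, strain on high-fat, interaction). In muscle 41, 41 and 21 of the 71 passed (diet in B6, strain on high-fat, interaction), with medians of -0.79, -0.66 and -1.05. Without the dimmest genes the medians were -1.63, -1.54 and -1.77 for these muscle comparisons and 0.61 for fat minus muscle, and with standard proteins alone -0.57 for muscle strain on high-fat. Probe sets without a suffix letter gave 1 (liver strain on low-fat) and 15 (muscle minus liver), with Rps24 at -0.10 for muscle minus liver and Rps4l at -0.061 for fat minus muscle. Without the narrow muscle arrays, also chosen after seeing the data, fat minus muscle had 17 members and a median of -0.089, and muscle minus liver was 0.068 for Rpl19, 0.080 for Rpl8, 0.13 for Rps7, 0.29 for Rps18 and 0.15 for Rpl6. With the array SD covariate these were 0.22, 0.24, 0.26, 0.49 and 0.46, and Rpl32 was -0.20. Leaving out 1 array gave 9 to 18, 0 to 8, 0 to 6 and 2 to 7 in liver (diet in B6, strain on low-fat, strain on high-fat, interaction), 4 to 22 and 0 to 16 in muscle (diet in B6, interaction) and 0 to 1 in fat (strain on high-fat). Over tissues, a replicate block gave 20 (fat minus liver), 23 (muscle minus liver) and 29 (fat minus muscle) and changed no other call. Arrays with the same replicate number in different tissues did not pair: their deviations correlated by -0.42 to 0.30 in 12 pairs, 2 above 0.1. Of 78 named calls, 72 kept direction and threshold under quantile normalization and 39 under the array SD covariate. The cause of these changes was not tested.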

Other observations

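The proteins of the mitochondrial ribosome are encoded by a separate set of nuclear genes, of which 61 have a probe set of a single symbol on this array. In B6 liver 34 of them were lower and 1 higher on the high-fat diet (median difference -0.45), against 12.0% and 6.21% of all genes. With the array SD as a covariate 15 were lower. For liver, the shares of all genes under that covariate are not given here, so its counts under the covariate have no share beside them. The differences were -0.81 (SE 0.08) for Mrps12, -0.85 (SE 0.09) for Mrps10 and -0.85 (SE 0.09) for Mrpl15, with limma adjusted p-values of 7.94e-06, 1.75e-05 and 2.7e-05. Between the strains on the low-fat diet 28 were higher in B6 liver and none lower (median 0.33), against 10.0% of all genes higher, and 5 were higher with the array SD as a covariate. In the interaction 19 were lower (median -0.42, all genes 4.63%), and 13 with that covariate.

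In B6 muscle 37 of the 61 were lower on the high-fat diet and none higher (median -0.81), against 12.0% and 14.8% of all genes. After quantile normalization 34 were lower and 3 higher (all genes 10.8% and 10.6%). With the array SD as a covariate 2 were lower, against 0.376% of all genes. The differences were -2.44 (SE 0.32) for Mrpl2, -1.42 (SE 0.21) for Mrps11 and -3.42 (SE 0.55) for Mrps21, with limma adjusted p-values of 0.00235, 0.00274 and 0.00393. On the high-fat diet 33 were lower in B6 than in 129S6 muscle and 3 higher (all genes 13.7% and 15.5%). With the array SD as a covariate 5 were lower, against 0.788% of all genes, and 1 was higher. In fat none passed in any comparison of diet or strain. Between tissues 31 were lower and 6 higher in fat than in liver (all genes 28.7% and 29.1%), and 35 lower and 5 higher in fat than in muscle (all genes 41.1% and 30.4%). Without the 5 narrow muscle arrays these counts were 34 and 4 (all genes 27.6% and 29.0%), and 46 and 1 (all genes 32.4% and 28.0%).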
